A study of Mus musculus with 4 samples.

Results

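Tbx21, Eomes, Zfp683, Prdm1, Runx3 and Id2 are 6 transcription factors and regulators of cytotoxic lymphocytes. They were chosen by name, with earlier results of these data known. All 6 were found among the 55253 genes that the gene tables of both libraries share by symbol. Their raw transcript counts were followed across lymphocyte types and across the mice pooled in each library. Tbx21 encodes T-bet and lies at chr11:97098007-97115331 (mouse build GRCm38.p6). Eomes, its T-box relative, lies at chr9:118478186-118486132. Prdm1, which encodes the repressor Blimp-1, lies at chr10:44437174-44528558, and Zfp683, which encodes the related zinc finger protein Hobit, lies at chr4:134051195-134058941, where RefSeq lists it as a pseudogene on this build. Runx3, a DNA-binding factor of the Runx family, lies at chr4:135120645-135177990. Id2, which encodes a protein that binds E proteins and keeps them from DNA, lies at chr12:25093799-25096092.

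As background, T-bet and Eomesodermin bind related DNA sites and together direct the maturation of natural killer (NK) cells and the effector and memory states of CD8 T cells. Hobit and Blimp-1 are known for repressing genes of tissue exit in resident lymphocytes of mice, Runx3 for silencing Cd4 and sustaining the cytotoxic programme and Itgae in CD8 T cells, and Id2 for allowing NK cells and innate lymphoid cells to form. Tissue NK cells share many surface markers with type 1 innate lymphoid cells, and Eomes is a factor by which these are commonly told apart.

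The study profiled single CD45+ immune cells of the mouse mammary gland at stages named nulliparous, gestation, lactation, involution and regression, and also sampled Balb/c and germ-free mice. Mice were pooled 2 times, for libraries named DR_MG_2021 and DR_MG_2022, and the earlier and the later pool each gave 1 gene library of 3′ transcript counts (unique molecular identifiers, UMIs) and 1 library of hash tags, the antibody barcodes that mark which sample a cell came from. In the earlier pool the tag names were Germ-free (HT2), Nulliparous (HT4), Gestation (HT5) and Lactation (HT6). Those used of the later pool were Germ-free (HT2), Gestation (HT5), Lactation (HT6), Involution (HT8), Regression (HT9), Balb/c (HT10) and GF (HT12). Nulliparous (HT4) was also listed for the later pool, but its tag had a total count of 1 in the filtered cells and was left out. The name of tag HT2 does not match the title of the earlier library, which lists involution and no germ-free mice, so cells of HT2 were used by tag and their name was given no weight. The labels do not say how many mice stand behind a tag, how old they were, of which strain they were apart from Balb/c, or at what stage the mice tagged Balb/c or GF were taken. Each tag was therefore counted as 1 sample. For comparisons of lymphocyte groups, p-values measure how much group differences vary between these samples, with the spread estimated over all groups in 1 fit. For Lactation against Gestation, they measure the spread between samples beyond that between libraries.

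After filtering, 15290 cells of the earlier pool and 14610 cells of the later pool were analysed, with 139 barcodes present in both libraries. The earlier library was shallower, with 56300251 UMIs against 90642638. One transcript, CT010467.1, took 17.1% to 20.0% of the UMIs of the lymphocyte groups in the earlier pool and 5.90% to 6.79% in the later pool, so levels are compared within a library or in models with the sample as a block.

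Lymphocytes were sorted by raw counts of 6 genes. Ncr1 cells had a UMI of Ncr1, the NK receptor NKp46, and none of Cd3e. T cells had a UMI of Cd3e, and were called Cd8b1 T cells with a Cd8b1 UMI, Cd8a-only T cells with Cd8a but no Cd8b1, and T cells without Cd8 with neither. Each of these 4 types was divided by Gzmc (granzyme C) and Itgae (the integrin chain CD103): cells with a UMI of at least 1 of them, and cells with neither. The 8 groups held 4748 cells in the earlier pool and 5863 in the later pool. Ncr1 cells numbered 1172 with neither gene and 332 with Gzmc or Itgae in the earlier pool, and 1002 and 439 in the later pool. A cell with neither may carry transcripts that were not captured, and the groups with Gzmc or Itgae were deeper: the median Ncr1 cell had 1334.5 UMIs with neither and 2243 with Gzmc or Itgae in the earlier pool, and 2910 and 3511 in the later pool. The labels of the groups were checked against markers that had no part in the sorting. Over 6 NK markers, Ncr1 cells summed to 57.9 to 64.4 UMIs per 10000, against 2.66 and 3.35 in Cd8b1 T cells with neither gene. Other cells came closer. With Gzmc or Itgae, Cd8a-only T cells reached 44.0 and 39.4 in the earlier and the later pool, and T cells without Cd8 reached 45.7 and 31.6. Macrophages stood at 35.6 and 36.9, so these markers do not set Ncr1 cells far apart from every other type. Over 7 T cell markers, the Ncr1 groups summed to 7.50 and 10.4 in the earlier pool and to 7.73 and 8.33 in the later pool, with none of the markers at 0, where Cd8b1 T cells with neither reached 33.1 in the earlier pool. The Ncr1 groups thus held some T cell transcripts, and their part in the results was not tested.

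The start site regions of 3 members are shown because the results turn on these genes: Eomes and Runx3 moved in opposite directions between the groups, and Tbx21 is the relative of Eomes. The 250 bases before the start site are shown 5′ to 3′ on the gene's strand, from RefSeq on GRCm38.p6, with motif matches in capitals.
Runx3, chr4:135120395-135120644, plus strand: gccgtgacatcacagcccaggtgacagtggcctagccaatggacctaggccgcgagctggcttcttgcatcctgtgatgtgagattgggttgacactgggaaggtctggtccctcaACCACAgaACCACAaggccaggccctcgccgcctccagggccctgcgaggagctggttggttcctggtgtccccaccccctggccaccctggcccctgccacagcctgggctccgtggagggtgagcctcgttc
Eomes, chr9:118477939-118478188, plus strand: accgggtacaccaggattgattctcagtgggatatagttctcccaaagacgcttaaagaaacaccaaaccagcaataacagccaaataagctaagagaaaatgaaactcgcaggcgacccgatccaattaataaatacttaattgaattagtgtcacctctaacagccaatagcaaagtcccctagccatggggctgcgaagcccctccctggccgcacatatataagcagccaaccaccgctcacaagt
Tbx21, chr11:97115332-97115581, minus strand: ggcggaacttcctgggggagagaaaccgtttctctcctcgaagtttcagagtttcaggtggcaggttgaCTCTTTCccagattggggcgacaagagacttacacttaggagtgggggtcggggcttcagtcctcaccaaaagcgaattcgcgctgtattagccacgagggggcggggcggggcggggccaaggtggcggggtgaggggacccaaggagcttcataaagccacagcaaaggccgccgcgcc
Windows of 300 bases, which run 50 bases past the start site, were searched on both strands for 3 short cores. These were GGTGTGA for T-box factors, TGTGGT for Runx factors and GAAAGNG for Blimp-1. Of 32544 different windows, 3.95% held the T-box core, 16.7% the Runx core and 21.2% the Blimp-1 core. The distal Runx3 window held the Runx core 2 times on the reverse strand, beginning 134 and 126 bases before the start site. The Tbx21 window held the Blimp-1 core 1 time on the reverse strand, 181 bases before the start site. No core was found in the Eomes window, nor in those of Prdm1, Id2 or the second Runx3 start. These matches describe letters and not binding. The table has no start site region for Zfp683.

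All 6 members were detected in both libraries, at very different depth. The 8 lymphocyte groups held 898 UMIs of Tbx21 in the earlier pool and 2174 in the later pool, 557 and 1930 of Eomes, 271 and 628 of Prdm1, 2962 and 8377 of Runx3, and 4056 and 14543 of Id2. Zfp683 had 78 and 123 UMIs, too few to pass the filter on low counts in the 7 comparisons of lymphocyte groups, so 5 of the 6 members entered those tests. The lymphocyte groups accounted for 54.0% and 75.6% of all Tbx21 UMIs in the earlier and the later pool, and for 32.2% and 45.7% of those of Prdm1, the lowest share of the 6. Outside these groups, B cells, macrophages and type 1 conventional dendritic cells held 4, 10 and 6 Tbx21 UMIs in the earlier pool. In the later pool they held 43, 29 and 5. Most other Tbx21 UMIs outside the groups lay in cells assigned to none of the types named here. Prdm1 was also present in macrophages, at 0.488 and 0.307 UMIs per 10000, and in plasma cells, where Blimp-1 directs antibody secretion, at 1.15 and 1.42 in only 17 and 21 cells. Id2 reached 7.80 and 9.61 in type 1 conventional dendritic cells and 6.33 and 11.5 in type 2 innate lymphoid cells, above the pooled level of every T cell group. B cells were taken as a reference for free RNA, although transcripts of their own could not be told apart from it. Their epithelial markers summed to 26.1 and 40.1 UMIs per 10000, against 3.68 to 9.69 in the lymphocyte groups, so the reference is a rough one. Tbx21 stood in B cells at 0.0387 and 0.0675, Eomes at 0.0193 and 0.0314, and Prdm1 at 0.0387 and 0.0581. Runx3 stood there at 0.580 and 0.751, and Id2 at 0.377 and 0.377.

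**Figure D1:**
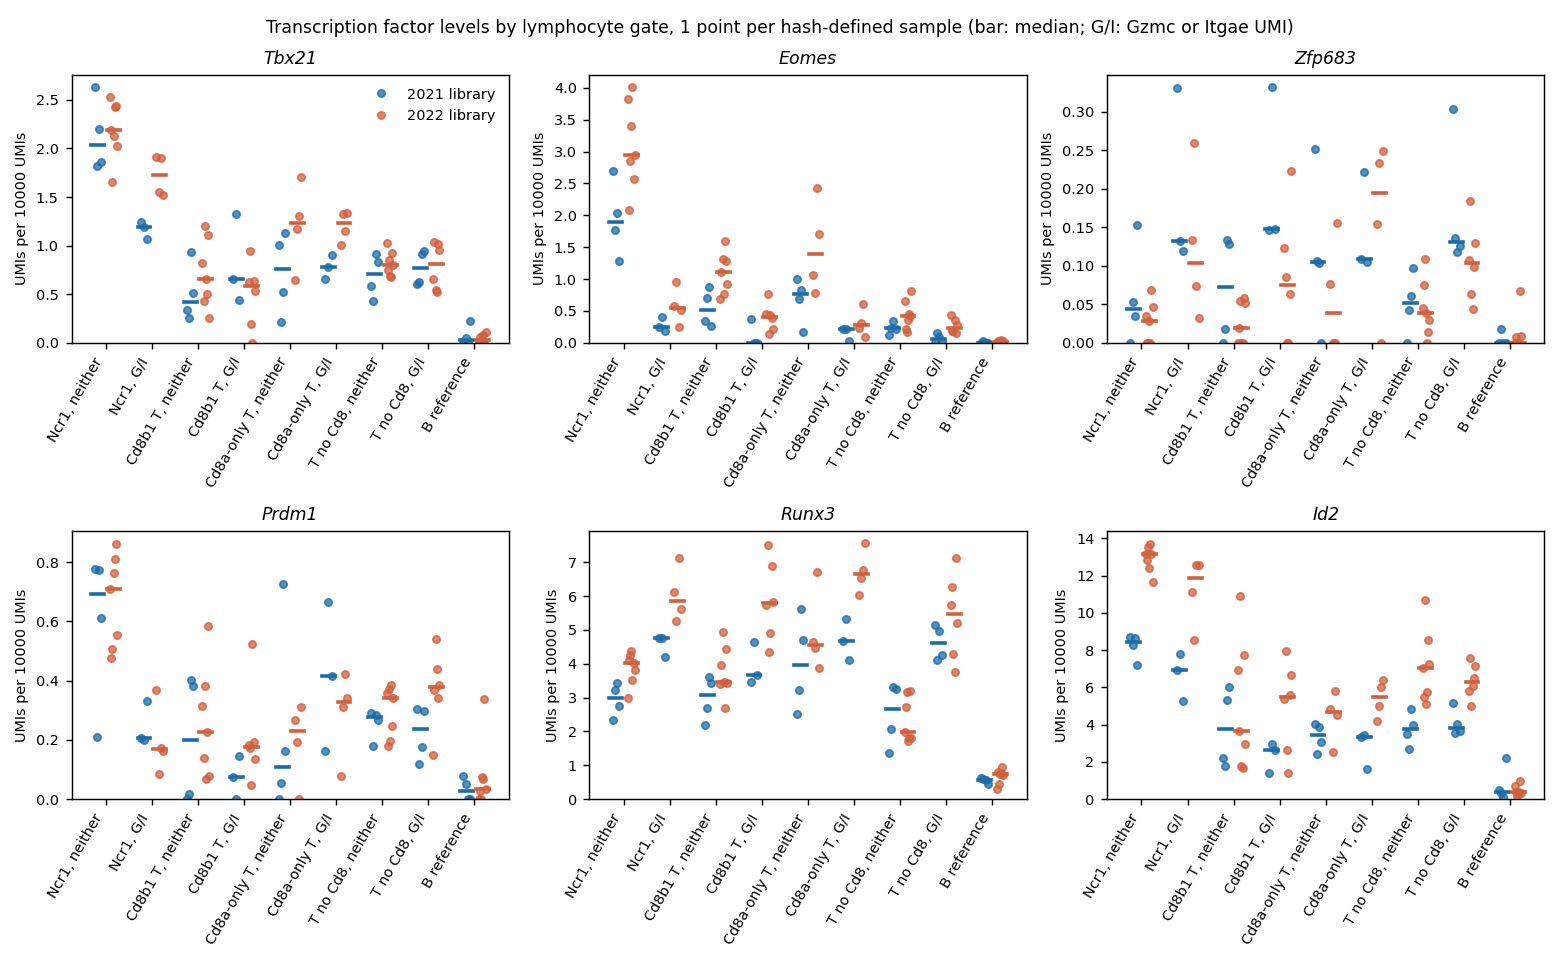
Level of each member, in UMIs per 10000 UMIs on the vertical axes, in the 8 lymphocyte groups. Each point is 1 hash tag sample with at least 20 cells, coloured by library (earlier in blue, later in orange), the bars mark medians, and B cells stand at the right. Tbx21 and Eomes are highest in Ncr1 cells with neither Gzmc nor Itgae, at medians of 2.19 and 2.95 in the later pool, where the 4 highest Runx3 medians are those of groups with Gzmc or Itgae.

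The T-box pair and Prdm1 were highest in Ncr1 cells with neither Gzmc nor Itgae. The Tbx21 level there was 2.13 ± 0.377 UMIs per 10000 (SD, n = 4) in the earlier pool and 2.20 ± 0.303 (SD, n = 7) in the later pool. Next came Ncr1 cells with Gzmc or Itgae, at 1.17 ± 0.0892 (SD, n = 3) and 1.72 ± 0.213 (SD, n = 4), followed by the 2 Cd8a-only groups of the later pool at 1.21 ± 0.438 and 1.20 ± 0.160 (SD, n = 4 each), which did not differ from each other beyond their spread. The remaining T cell groups lay between 0.488 and 0.817 in their means in the later pool, within 1 SD of their neighbours in the order. Eomes followed another order below its peak of 1.94 ± 0.590 (SD, n = 4) and 3.1 ± 0.685 (SD, n = 7). The next groups were Cd8a-only and Cd8b1 T cells with neither gene, at 1.5 ± 0.734 (SD, n = 4) and 1.10 ± 0.328 (SD, n = 7) in the later pool, which overlapped each other. Every group with Gzmc or Itgae had a mean Eomes level of 0.571 or less in both libraries, and T cells without Cd8 stood among them at 0.440 ± 0.228 (SD, n = 7) in the later pool. For Prdm1, the peak was 0.594 ± 0.267 (SD, n = 4) and 0.669 ± 0.155 (SD, n = 7), and all other groups lay between 0.0735 and 0.415 in their library means, with overlap between neighbours in that order.

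Runx3 and Id2 ranked the groups differently. The Runx3 means of the later pool ran from 2.34 ± 0.661 (SD, n = 7) in T cells without Cd8 and without Gzmc or Itgae to 6.73 ± 0.635 (SD, n = 4) in Cd8a-only T cells with Gzmc or Itgae. The 4 highest of the 8 groups in the later pool were the 4 with Gzmc or Itgae, at 5.40 to 6.73, and their samples overlapped. Id2 ranked the groups by lineage, with 8.20 ± 0.690 (SD, n = 4) and 12.9 ± 0.712 (SD, n = 7) in Ncr1 cells with neither gene and 6.65 ± 1.3 (SD, n = 3) and 11.2 ± 1.91 (SD, n = 4) in those with Gzmc or Itgae. T cell groups stood between 2.34 and 4.10 in the earlier pool and between 4.42 and 7.12 in the later pool. Zfp683 was sparse everywhere, with library means from 0.0254 to 0.208, and B cells held 0.00967 and 0.00471 per 10000 in the pooled cells.

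The first question was whether the members differ between Ncr1 cells with Gzmc or Itgae and Ncr1 cells with neither. Eomes, Prdm1 and Tbx21 were lower with Gzmc or Itgae, and Runx3 was higher. Eomes in the cells with neither was 1.76, 2.03 and 1.28 UMIs per 10000 in Nulliparous, Gestation and Lactation of the earlier pool and 2.70 in tag HT2, and ran from 2.09 through a median of 2.95 to 4.01 in the 7 samples of the later pool. In the cells with Gzmc or Itgae it was 0.248, 0.397 and 0.190 in Nulliparous, Gestation and Lactation of the earlier pool, and 0.569, 0.949, 0.248 and 0.519 in Gestation, Involution, Balb/c and GF of the later pool. The 2 sets of values did not overlap over both libraries, and Eomes was lower in 7 of the 7 samples that had both groups. The fitted log2 fold change was -2.69 (SE 0.23, adjusted p = 1.54e-15, edgeR), one of the 796 genes called, or 12.4% of the 6424 tested. It was -2.73 in the samples of the earlier pool alone and -2.64 in those of the later pool, and it was called in all 23 alternative settings. Thinned to 1000 UMIs per cell, 16% of cells with neither held an Eomes UMI in the earlier pool against 1.84% with Gzmc or Itgae, and 24.3% against 3.67% in the later pool, where unthinned shares were 23.0%, 5.42%, 47.0% and 11.4%. B cells thinned the same way gave 0.336% and 0.235%, from median depths of 912 and 2039 UMIs.

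Tbx21 was lower too. Its level with Gzmc or Itgae was 1.24, 1.19 and 1.07 in Nulliparous, Gestation and Lactation of the earlier pool, where cells with neither had 1.82, 2.20 and 1.86. In the later pool it was 1.91, 1.55, 1.91 and 1.52 in Gestation, Involution, Balb/c and GF, against 2.19, 2.12, 2.43 and 2.03. All 7 samples were lower, and among these samples the groups did not overlap within either library. The Lactation sample of the later pool, which had too few cells with Gzmc or Itgae, stood at 1.65 in cells with neither, inside the range of the cells with either gene. The fitted difference was -0.52 on the log2 scale (SE 0.15, adjusted p = 0.0128, edgeR). The call was lost in the samples of the later pool alone (-0.33, adjusted p = 0.392) and without the Lactation sample of the earlier pool (-0.45, adjusted p = 0.0666). Prdm1 fell too. Its level was 0.207, 0.199 and 0.332 in the same 3 samples of the earlier pool and 0.368, 0.0863, 0.173 and 0.162 in the 4 of the later pool, against 0.211, 0.775 and 0.613, and 0.475, 0.765, 0.863 and 0.553, in cells with neither. It was lower in 7 of 7 samples, though the Nulliparous pair differed little, and the log2 fold change was -1.42 (SE 0.27, adjusted p = 3.2e-05, edgeR). In the samples of the earlier pool alone it was -1.07 (adjusted p = 0.106).

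Runx3 rose in the same cells. With Gzmc or Itgae it was 4.76, 4.76 and 4.20 in the earlier pool and 6.13, 5.26, 7.13 and 5.61 in the later pool, and with neither it was 3.21, 3.43 and 2.74, and 4.10, 4.39, 4.02 and 3.80, in the same samples. All 7 samples were higher, with no overlap within a library. Its fitted log2 fold change was 0.54 (SE 0.10, adjusted p = 2.57e-05, edgeR), with 0.51 in the earlier pool alone and 0.57 in the later pool alone, and it was called in all 23 alternative settings. Id2 was lower in 6 of 7 samples without passing the test (-0.25, SE 0.16, adjusted p = 0.376, edgeR). Zfp683, which needs a fit without the filter on low counts, was higher in 5 of 7 samples, at 0.331, 0.132 and 0.119 in the earlier pool and 0.134, 0.259, 0.0743 and 0.0324 in the later pool, and its log2 fold change in that fit was 1.33 (SE 0.42, adjusted p = 0.0469, edgeR). The T cell markers given above and the plasma cell transcripts moved with this comparison in the earlier pool: plasma markers summed to 23.4 per 10000 in cells with neither and 5.61 with Gzmc or Itgae, against 1.60 and 1.26 in the later pool. Their part in the Prdm1 difference was not tested, and that difference was -1.63 (adjusted p = 0.0008, edgeR) in the samples of the later pool alone.

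**Figure D2:**
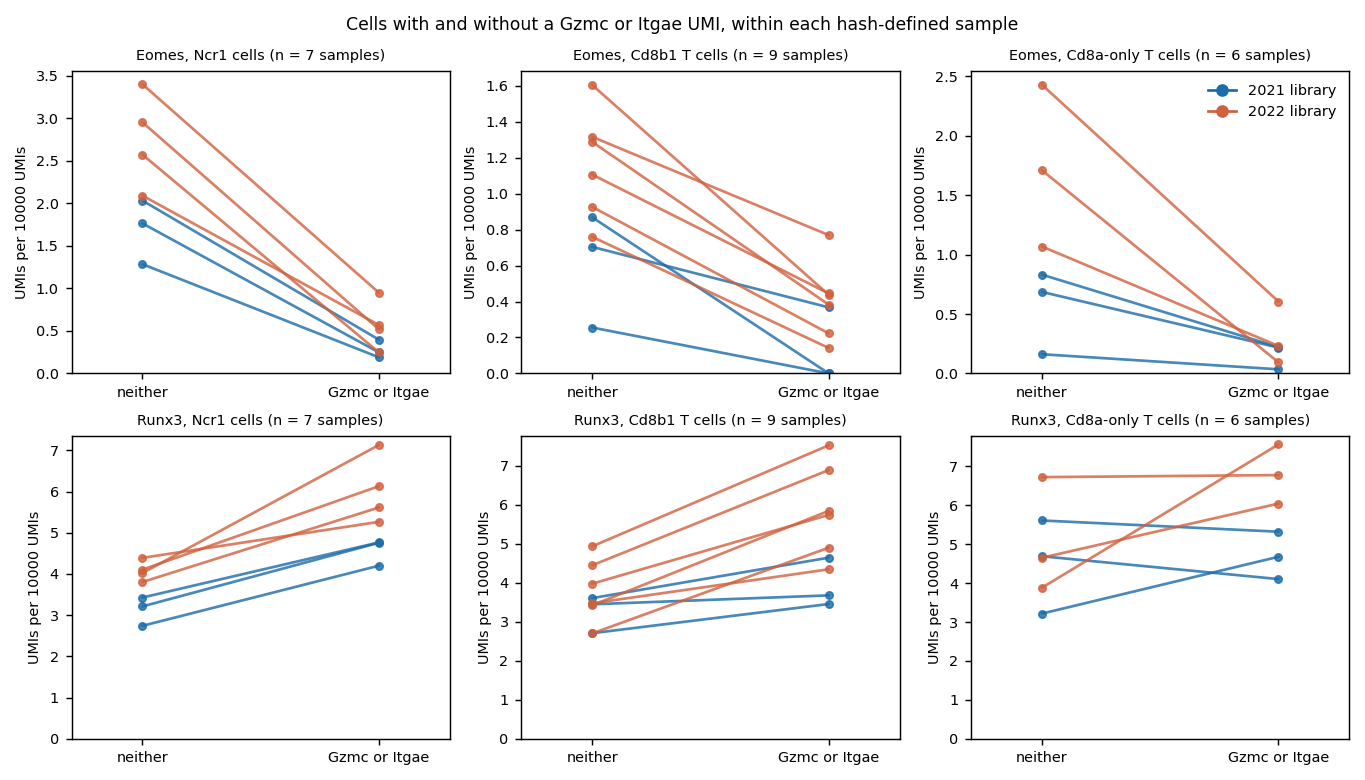
Levels of Eomes (top) and Runx3 (bottom), in UMIs per 10000, in cells with neither Gzmc nor Itgae and in cells with either gene, with a line joining the groups of 1 hash tag sample (earlier library in blue, later in orange). Eomes falls along every line in Ncr1 cells (7 of 7), Cd8b1 T cells (9 of 9) and Cd8a-only T cells (6 of 6), and Runx3 rises along 7 of 7, 9 of 9 and 4 of 6.

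Other genes were followed in lists that were chosen with earlier results of these data known, so their counts are descriptions. The lists were of effector molecules, tissue residency, circulation, and other lymphocyte transcription factors. Of 10 circulation genes tested, 6 fell and none rose, among them the egress receptor S1pr5 (-4.17) and the transcription factor Zeb2 (-3.04), with a list median of -2.26 against -0.00063 over all genes tested. Of 10 residency genes, 4 rose and none fell, led by the integrin Itga1 (2.09), the chemokine receptor Cxcr6 (1.80) and Rgs1 (1.33). Effectors divided: Tnfsf10 (1.65), Gzmb (1.59) and Xcl1 (0.92) were among 4 that rose, and Prf1, the pore-forming perforin (-2.42), Ccl3 (-1.78) and Ifng (-1.37) were the 3 that fell, of 13 tested. Of 21 other transcription factors, 9 fell, with Lef1 (-2.65), Myb (-2.51) and Irf8 (-1.60) moving most, and Tox (0.62) rose.

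Among Ncr1 cells, Gzmc and Itgae could be taken apart in the pooled cells of each library, with intervals for counting error only. Eomes stood at 1.93 UMIs per 10000 (95% Poisson interval 1.74 to 2.13) with neither in the earlier pool, 0.393 (0.128 to 0.917) with Gzmc alone, 0.308 (0.172 to 0.508) with Itgae alone and 0.134 (0.0277 to 0.393) with both. The same 4 values of the later pool were 3.11 (2.92 to 3.31), 1.5 (1.02 to 2.11), 0.603 (0.459 to 0.778) and 0.104 (0.0337 to 0.242). In the pooled cells of the later library, Eomes was thus lowest where both genes were detected, and the 48 cells with Gzmc alone were intermediate. Single samples differed widely with Gzmc alone, from 0.00 in Involution and 0.423 in Gestation to 3.47 in Lactation, each from 7 cells or fewer. Balb/c, GF and HT2 had 1.24, 1.96 and 2.08. Lactation was above its own level with neither gene (2.86), so the intermediate value describes the pool and not each sample. In the earlier pool the value with both rests on 3 UMIs, and its interval overlaps those of the other sets with a gene detected. Samples contributed unequally: Balb/c held 17 of the 48 cells with Gzmc alone, 154 of the 268 with Itgae alone and 79 of the 123 with both in the later pool. Without Balb/c, the 4 values of that pool were 3.23, 1.57 (1.03 to 2.31), 0.974 (0.718 to 1.29) and 0.0964 (0.0117 to 0.348), so the level with Itgae alone was over 1.5 times as high. Runx3 was 2.95 and 3.73 with neither and 4.35 to 4.45 and 5.10 to 6.71 in the 3 other sets. In the pooled cells, either gene thus went with more Runx3. Some sets of single samples, of 12 cells or fewer, lay below the level with neither gene in the same sample. Zfp683 in cells with both was 0.359 (0.155 to 0.706) from 8 UMIs in the earlier pool and 0.0208 from 1 UMI in the later pool, and the libraries give different pictures.

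**Figure D3:**
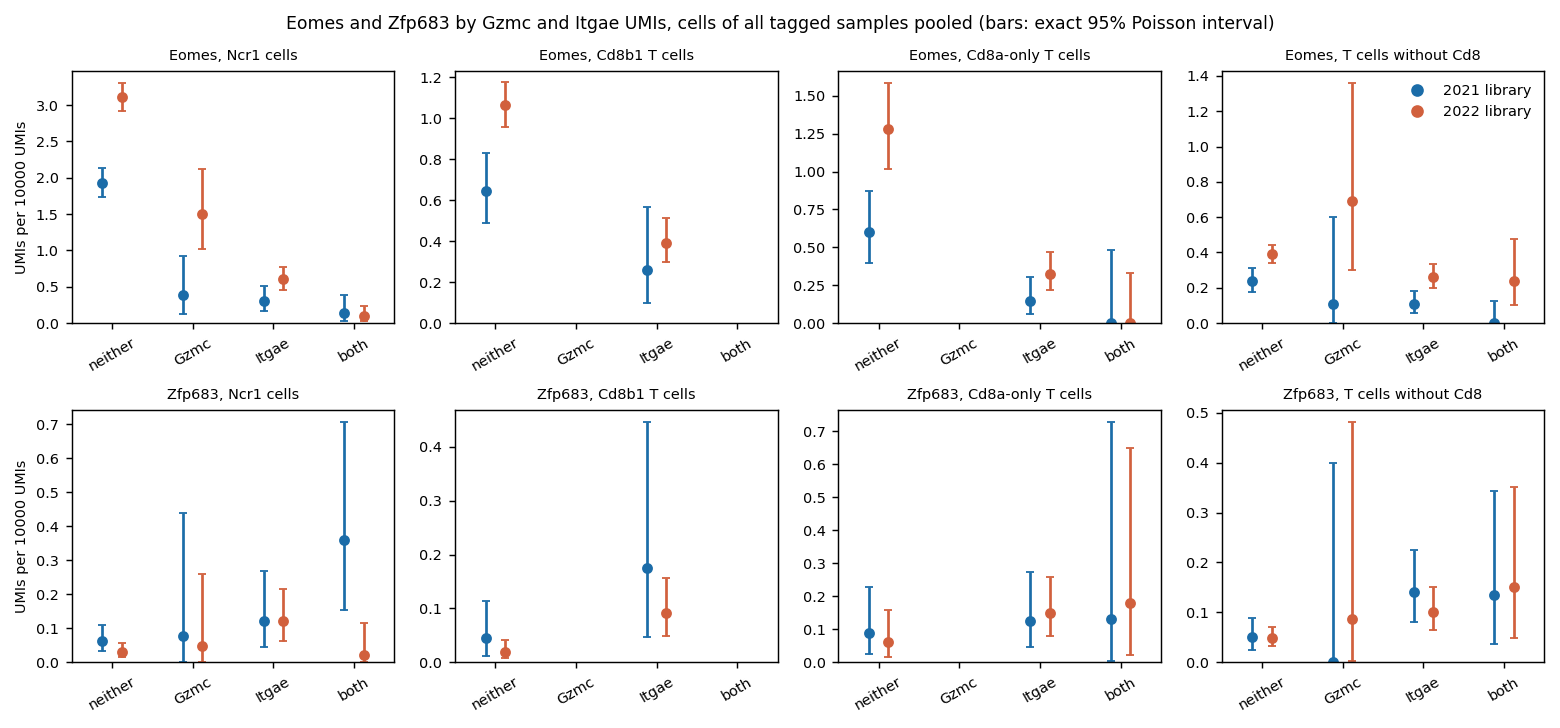
Pooled levels of Eomes (top) and Zfp683 (bottom), in UMIs per 10000 with 95% Poisson intervals, in cells with neither gene, Gzmc alone, Itgae alone or both, for Ncr1 cells and the 3 kinds of T cells, with the earlier library in blue and the later in orange. In Ncr1 cells of the later pool, Eomes goes from 3.11 with neither to 0.104 with both, and sets of under 20 cells are not drawn. Zfp683 in Ncr1 cells with both is 0.359 in the earlier pool and 0.0208 in the later.

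Tbx21 and Eomes were often seen in different cells, as sparse counts allow. Of 1172 Ncr1 cells with neither Gzmc nor Itgae in the earlier pool, 269 had a UMI of Tbx21 alone, 202 of Eomes alone and 67 of both. In the deeper, later library the numbers were 255, 241 and 230 of 1002. With Gzmc or Itgae, Tbx21 alone was seen in 72 and 165 cells, Eomes alone in 12 and 21, and both in 6 and 29, of 332 and 439. The cells with Gzmc or Itgae were thus mostly Tbx21 cells without an Eomes UMI, among those with a UMI of either.

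The same comparison was made in T cells. In Cd8b1 T cells, the conventional CD8 lineage, Eomes fell and Runx3 rose with Gzmc or Itgae, and 195 genes, 3.04% of those tested, were called. Eomes was 0.704, 0.868 and 0.255 UMIs per 10000 with neither gene in Nulliparous, Gestation and Lactation of the earlier pool, and 0.367, 0.00 and 0.00 with Gzmc or Itgae. In the later pool it ran from 0.693 through a median of 1.11 to 1.60 with neither and from 0.142 through 0.410 to 0.769 with either gene. It was lower in 9 of 9 samples, with a small overlap of the ranges in each library. The log2 fold change was -1.49 (SE 0.28, adjusted p = 0.000197, edgeR). Runx3 with either gene was 3.45, 4.64 and 3.68 in the earlier pool, and 4.34 through 5.79 to 7.52 in the later pool, against 2.71, 3.61 and 3.45 in the same samples of the earlier pool, and 2.70 through 3.47 to 4.93. It was higher in 9 of 9 samples, with overlapping ranges in both libraries. The log2 fold change was 0.46 (SE 0.10, adjusted p = 0.00254, edgeR). Neither call was made in the samples of the earlier pool alone, where only 3 samples had both groups (Eomes -1.47, adjusted p = 0.476, and Runx3 0.21, adjusted p = 0.857). Tbx21, Prdm1 and Id2 differed by -0.12, -0.02 and -0.07 and were not called, with adjusted p of 0.918 or more by edgeR. Zfp683 was higher in 7 of 9 samples and equal in 2, and without the filter its log2 fold change was 1.76 (SE 0.52, adjusted p = 0.0561, edgeR).

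NK markers moved with this comparison, from 2.66 per 10000 with neither gene to 14.9 with either in the earlier pool and from 3.35 to 7.50 in the later pool. Klra8 alone of the 6 was at 0, in the cells with either gene of the earlier pool. Plasma markers went from 11.7 to 29.5 in the earlier pool, with Mzb1 and Derl3 of the 5 at 0 in the cells with either gene, and stood at 0.894 and 0.966 in the later pool. Their part in the results was not tested.

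Around the members, 5 of 13 effectors rose and none fell (Gzma 2.57, Gzmb 1.98 and Xcl1 1.51 moved most), and 4 of 10 residency genes rose, led by the receptor Ahr (1.79). Of the circulation genes, 3 fell, among them Ccr7 (-1.04) and Klf2 (-0.65). Of 21 other transcription factors, 5 fell, including Myb (-2.63), Tcf7 (-0.87) and Lef1 (-0.86), and Ikzf2 (1.22) rose.

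In Cd8a-only T cells, which had transcripts of the CD8 alpha chain and none of the beta chain, Eomes fell as well. Eomes was 0.686, 0.831 and 0.162 with neither in Nulliparous, Gestation and Lactation of the earlier pool and 1.07, 0.777, 2.43 and 1.71 in Gestation, Involution, Balb/c and GF of the later pool. With Gzmc or Itgae it was 0.218, 0.222 and 0.0348 in the earlier pool and 0.231, 0.311, 0.605 and 0.0934 in Gestation, Lactation, Balb/c and GF of the later pool. All 6 samples with both groups were lower, and the ranges of the later pool did not overlap while those of the earlier pool did. In the fit, Eomes changed by -2.23 on the log2 scale (SE 0.41, adjusted p = 9.27e-05, edgeR), with 364 genes called, 5.67% of those tested. It was -2.02 (adjusted p = 0.112) in the earlier pool alone and -2.35 in the later pool alone. Runx3 was higher in 4 of 6 samples, with a fitted log2 difference of 0.27 (SE 0.12, adjusted p = 0.220, edgeR), and Tbx21 (0.25), Prdm1 (0.33) and Id2 (-0.08) were not called either. Zfp683 was higher in 5 of 6 samples and equal in 1, with a log2 fold change of 0.85 and no call in the fit without the filter. NK markers summed to 20.1 per 10000 with neither gene and 44.0 with either in the earlier pool and to 11.4 and 39.4 in the later pool, with none of the 6 at 0, and plasma markers stood at 8.93 and 18.4 in the earlier pool and at 0.810 and 1.14 in the later pool. Their part in the Eomes difference was not tested. Of the lists, 5 circulation genes fell and none rose (Ccr7 -2.64 and Il7r -2.53 among them), 2 residency genes rose (Ahr 1.08 and Rgs1 1.08), 5 effectors rose and Ifng (-1.69) fell, and 4 other transcription factors fell, led by Tcf7 (-2.60).

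**Figure D4:**
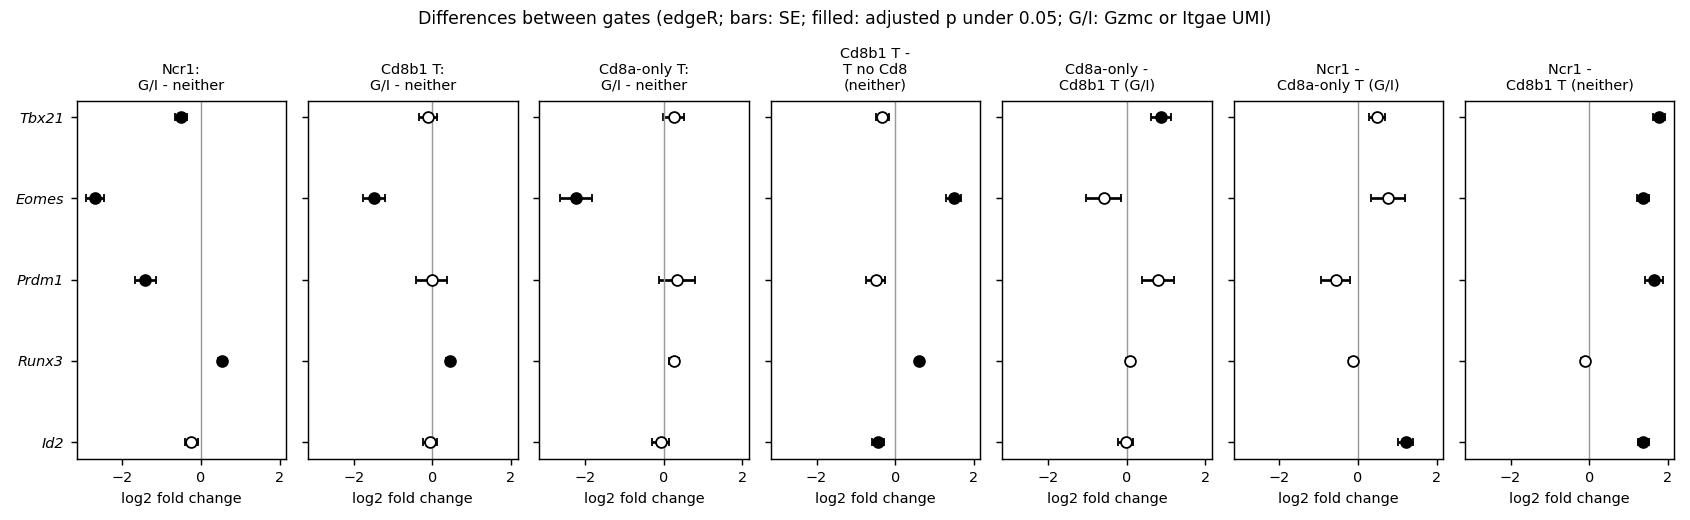
Log2 fold change of the 5 tested members in the 7 comparisons of lymphocyte groups, with bars of 1 standard error and filled points where the adjusted p of edgeR is under 0.05. Eomes stands at -2.69, -1.49 and -2.23 in the 3 comparisons by Gzmc or Itgae, and Runx3 at 0.54, 0.46 and 0.27.

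Between lineages, the members divided differently. Ncr1 cells and Cd8b1 T cells, both with neither Gzmc nor Itgae, differed in 1963 genes, 30.6% of those tested, and 4 of the 5 tested members were among them. All 4 were higher in Ncr1 cells in 11 of 11 samples: Tbx21 by 1.77 on the log2 scale (SE 0.15, adjusted p = 7.3e-17), Prdm1 by 1.65 (SE 0.23, adjusted p = 1.01e-08), Id2 by 1.38 (SE 0.14, adjusted p = 4.41e-13) and Eomes by 1.37 (SE 0.16, adjusted p = 9.1e-12), all by edgeR. For Tbx21 the samples of the 2 groups did not overlap over both libraries. Runx3 was higher in 6 samples and lower in 5, with a log2 fold change of -0.11 (interval of 2 standard errors to each side, -0.29 to 0.067). Of the lists, 12 of 13 effectors were higher in Ncr1 cells and 1 was lower, and of 21 other transcription factors 8 were higher, led by Irf8 (3.48), and 7 lower, led by Id3, a relative of Id2 (-2.79).

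Cd8b1 T cells against T cells without Cd8, both with neither gene, differed in 707 genes, 11.0% of those tested. Eomes was higher in Cd8b1 T cells in 11 of 11 samples. In T cells without Cd8 its level was 0.117, 0.231, 0.347 and 0.219 in the earlier pool and 0.175 through 0.418 to 0.817 in the later pool. The log2 fold change was 1.49 (SE 0.19, adjusted p = 6.39e-09, edgeR). Runx3, whose product silences Cd4 in the CD8 lineage, was also higher in 11 of 11 samples, by 0.62 (SE 0.09, adjusted p = 2.67e-07, edgeR). In the samples of the earlier pool alone it was 0.26 (adjusted p = 0.582) and in those of the later pool 0.80. The difference between the libraries was 0.54 (SE 0.18, unadjusted p = 0.00345, adjusted p = 0.961 over all genes tested, edgeR). Id2 was lower in Cd8b1 T cells in 8 of 11 samples, by -0.44 (SE 0.14, adjusted p = 0.0330, edgeR). That call was lost in 11 of 23 alternative settings, among them DESeq2 (adjusted p = 0.0944), with values from -0.62 to -0.15. Tbx21 (-0.32, adjusted p = 0.247) and Prdm1 (-0.50, adjusted p = 0.237) were not called. Around them, the granzyme gene Gzmk (3.15) and Prf1 (0.94) were among 3 of 13 effectors that were higher in Cd8b1 T cells, and Gzma (-1.40), Xcl1 (-1.18) and Ifng (-0.69) were the 3 that were lower, though Ifng was at 0.32 in the earlier pool alone. Of 21 other transcription factors, 8 were lower, with Maf (-2.84) first, and Myb (0.77) and Lef1 (0.48) were the 2 that were higher. NK markers also differed between these groups, at 2.66 and 3.35 per 10000 in Cd8b1 T cells of the earlier and the later pool against 16.5 and 9.10 in T cells without Cd8, and plasma markers stood at 11.7 against 22.2 in the earlier pool and 0.894 against 1.36 in the later pool. Their part in the results was not tested. Within T cells, those with an Ncr1 UMI had pooled Tbx21 levels of 1.18 in the earlier pool and 1.41 in the later pool, from 201 and 491 cells, against 0.617 and 0.655 in T cells without one.

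Among cells with Gzmc or Itgae, 1 member was called in each comparison of lineages. Cd8a-only against Cd8b1 T cells differed in 579 genes, 9.01% of those tested. Tbx21 was the member called, at 0.653, 0.776 and 0.904 in Cd8a-only cells and 0.661, 1.33 and 0.441 in Cd8b1 cells in Nulliparous, Gestation and Lactation of the earlier pool. In the later pool it was 1.00, 1.32, 1.15 and 1.34 against 0.629, 0.940, 0.638 and 0.535 in Gestation, Lactation, Balb/c and GF. The 4 samples of the later pool were higher without overlap and those of the earlier pool were mixed. The log2 fold change was 0.88 (SE 0.25, adjusted p = 0.0136, edgeR). It was 0.14 (adjusted p = 0.970) in the earlier pool alone, and the call was lost in 4 of 23 alternative settings, among them that one and leaving out the GF sample (adjusted p = 0.0772). NK markers moved with it, at 44.0 and 39.4 per 10000 in the Cd8a-only cells against 14.9 and 7.50 in the Cd8b1 cells, and their part was not tested. Ncr1 cells against Cd8a-only T cells differed in 182 genes, 2.83% of those tested, and Id2 was higher in Ncr1 cells in 6 of 6 samples (log2 fold change 1.22, SE 0.19, adjusted p = 2.29e-06, edgeR). Tbx21 was higher in 6 of 6 as well but not called (0.49, adjusted p = 0.264). Eomes differed by 0.76 (adjusted p = 0.514) and Runx3 by -0.12 and were not called. In none of the 7 comparisons did a gene differ between the libraries after adjustment by edgeR, while 234 to 347 genes had an unadjusted p under 0.05.

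Over the 16 sums of 8 groups and 2 libraries, the genes most like each member were ranked by Pearson's r of log2(CPM + 10) among 9125 genes. These are descriptions, since the points share cells and depth within a library. Closest to Tbx21 were Gsap (r = 0.96), the NK receptor gene Klrk1 (0.95) and Anxa2 (0.95). Eomes was nearest to the kinase gene Jak1 (0.94), Lpin1 (0.93) and Atp8b4 (0.91), and Runx3 to the survival gene Bcl2 (0.93), Prag1 (0.90) and Pam16 (0.90). Prdm1 lay with Klra3 (0.91), Hes1 (0.88) and Herpud1 (0.88), Id2 with Hspa5 (0.96), Casp4 (0.95) and Cdc42 (0.95), and the sparse Zfp683 with Gngt2 (0.90), Abi3 (0.89) and Wdr6 (0.89). Among the members, Tbx21 went with Id2 (0.80) and Prdm1 (0.79) more than with Eomes (0.49), and Eomes ran against Zfp683 (-0.68).

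The design also varied the stage, with 1 sample per name and library. In all Ncr1 cells, Eomes was 2.63 UMIs per 10000 in tag HT2 of the earlier pool, 1.17 in Nulliparous, 1.69 in Gestation and 0.795 in Lactation. In the later pool it was 3.80 in HT2, 1.54 in Gestation, 2.64 in Lactation and 1.94 in GF, and Involution, Regression and Balb/c had 2.79, 3.67 and 1.22. Tag HT2 was highest in both libraries, and Gestation was above Lactation in the earlier pool and below it in the later pool. These levels cover both Ncr1 groups, whose proportions differ. Only 15 and 8 Ncr1 cells of HT2 and 8 of Regression had Gzmc or Itgae, and these were among the samples highest in Eomes. They were also the highest within Ncr1 cells with neither gene. There HT2 had 2.70 in the earlier pool, against 1.28 to 2.03 in the other samples. In the later pool HT2 had 3.82 and Regression 4.01, against 2.09 to 3.40 in the others. The part of the proportions was not tested.

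In all T cells, Runx3 was 1.90, 3.01, 4.19 and 3.95 in HT2, Nulliparous, Gestation and Lactation of the earlier pool. In the later pool it was 2.75 in HT2, 4.09 in Gestation, 4.99 in Lactation and 4.16 in GF, and Involution, Regression and Balb/c had 3.21, 2.67 and 5.52. In the later pool HT2 and Regression were thus lowest and Balb/c highest. These levels also cover groups in different proportions: cells with Gzmc or Itgae made up 49.7% of the T cells in Balb/c, 20.9% in Regression and 11.2% in HT2 of that library. Among T cells with neither gene, Runx3 was lowest in Regression (2.19) and HT2 (2.41) and highest in Lactation (3.80), with Balb/c at 3.63. Id2 ranged widely in Cd8b1 T cells of the later pool, where it was 9.75 in Lactation, 7.51 in HT2, 6.71 in Balb/c, 4.31 in GF, 4.15 in Gestation, 1.98 in Involution and 1.60 in Regression. In Ncr1 cells of the same library Id2 stayed between 11.5 and 13.2, a narrower range. Tbx21 in T cells was 0.578, 0.449, 0.885 and 0.878 in the earlier pool, and ran from 0.575 in Regression to 1.06 in Lactation in the later pool.

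**Figure D5:**
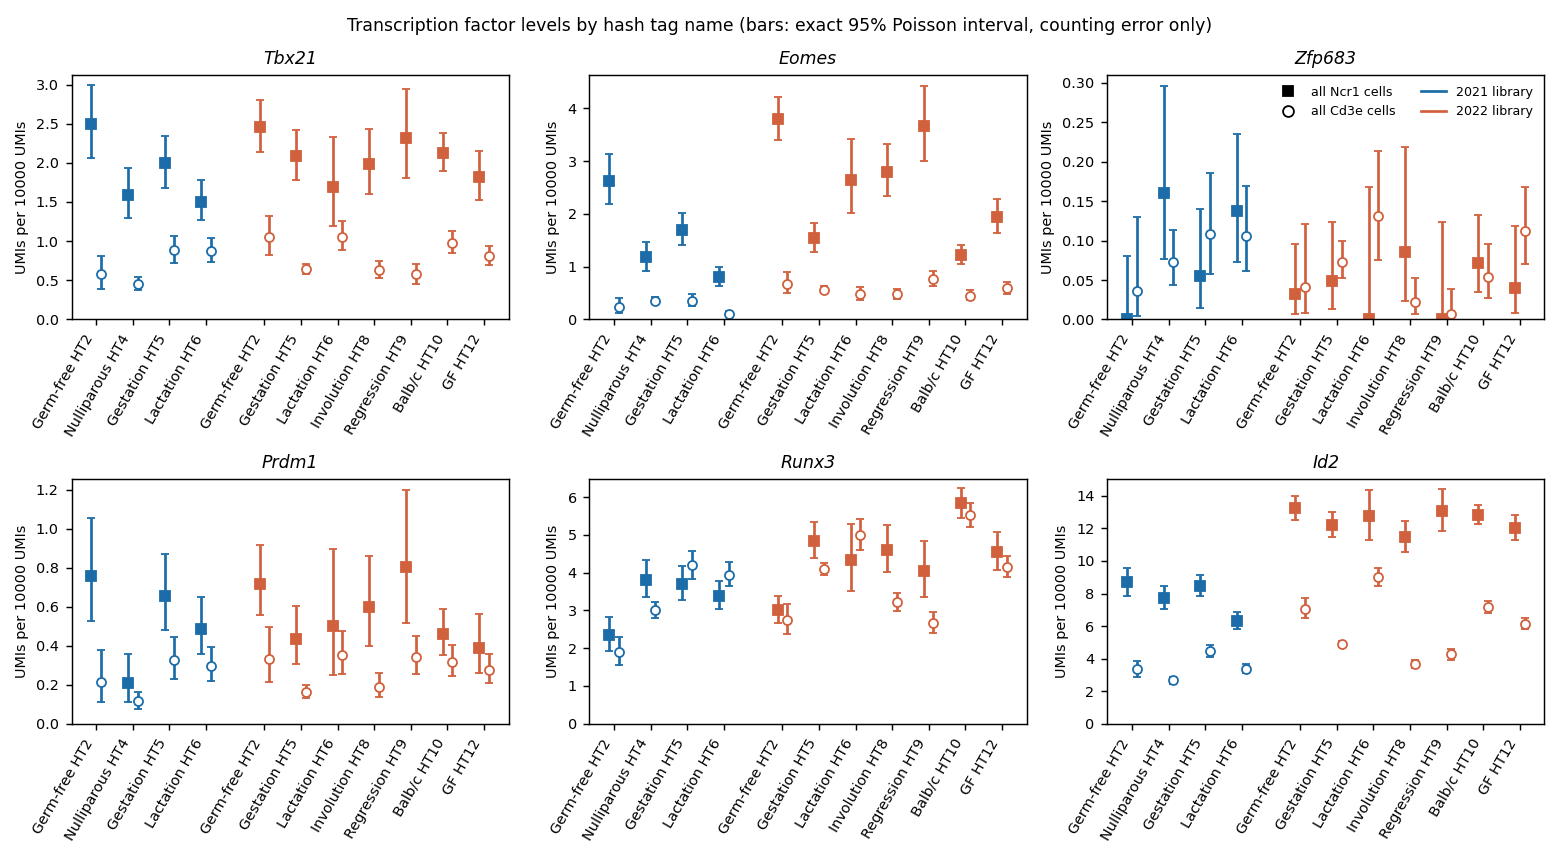
Level of each member, in UMIs per 10000 with 95% Poisson intervals for counting error, in all Ncr1 cells (squares) and all T cells (circles) of each hash tag sample, by name, with the earlier library in blue and the later in orange. Eomes in Ncr1 cells is highest in tag HT2 of both libraries (2.63 and 3.80), and Runx3 in T cells is lowest there in the earlier pool (1.90).

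Lactation and Gestation were the only names outside dispute with a sample in both libraries, which leaves 1 residual degree of freedom. All 6 members were tested in all T cells, all but Zfp683 in Cd8a-only T cells and Ncr1 cells, and all but Zfp683 and Prdm1 in Cd8b1 T cells. No member was called by edgeR in any of these 4 cell sets. The sets had few calls: 14 genes in all T cells (0.152% of those tested), 5 in Cd8b1 T cells (0.139%), 2 in Cd8a-only T cells (0.0446%) and 31 in Ncr1 cells (0.406%), with 382, 137, 121 and 350 genes at an unadjusted p under 0.05 and 3, 0, 1 and 0 called by DESeq2. In all T cells, Eomes was lower in Lactation, at 0.100 against 0.359 in the earlier pool and 0.476 against 0.565 in the later pool. Its log2 difference was -0.84 (SE 0.30, adjusted p = 0.723, edgeR). Tbx21 differed by 0.35, Prdm1 by 0.50, Zfp683 by 0.42, Runx3 by 0.08 and Id2 by 0.23 in the same cells. These values cover T cell groups in different proportions, whose part was not tested. Cells with Gzmc or Itgae made up 55.6% of T cells in Lactation and 35.7% in Gestation of the earlier pool. In the later pool they made up 36.9% and 25.1%. In Cd8b1 T cells Id2 differed by 0.58, at an adjusted p near 1 by edgeR, and in Ncr1 cells Tbx21 differed by -0.36 and Eomes by -0.18. In Cd8a-only T cells Eomes differed by -0.995 without a call. Leaving out the Lactation sample of the later pool and the library as a block gave -2.81 there. That fit sets 1 Lactation sample, of the earlier pool, against Gestation of both pools, so stage and library cannot be told apart in it.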

How the data were processed

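The 2 gene libraries and their hash tag libraries were deposited as matrices of raw UMI counts per cell barcode. Per the submitters' processing notes, the build was mm10 and the tool Cell Ranger 6.1.0, while the header of the earlier gene matrix names Cell Ranger 4. The deposited values are whole numbers and carry no normalization. The libraries held 56300251 and 90642638 UMIs.

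Barcodes with under 500 UMIs, under 300 genes or over 10% mitochondrial UMIs were dropped, which left 21604 in the earlier pool and 21177 in the later pool, with medians of 1599 and 3049 UMIs. Tags were assigned with HTODemux (Seurat 5.3.0, positive quantile 0.99). Doublets called from the tags and by Scrublet (scanpy 1.11.5, expected rate 0.08) were left out, as were cells with 3 or more UMIs over 10 genes of other lineages. Lymphocyte groups were sorted by at least 1 UMI of the genes named, and these 6 genes received no test. Counts were summed per tag sample and group with at least 20 cells.

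Differences between groups were tested with edgeR 4.0.16 (R 4.3.3; quasi-likelihood, TMM, filterByExpr) in 1 fit over the 8 groups, with the tag sample as a block, since the groups of a sample come from the same cell suspension. For each gene the 8 groups shared the estimate of spread, and samples with only 1 of the compared groups also entered the fit. Lactation against Gestation was tested on sums with the library year as a block. Adjusted p-values are Benjamini-Hochberg values over all genes tested, with a threshold of 0.05. DESeq2 1.42.0 was an alternative. Standard errors are the log2 fold change divided by the square root of F. Intervals for single samples are 95% Poisson intervals and cover counting error only. The tests were checked on simulated counts. Each level is UMIs per 10000 UMIs of the group; levels were not compared between genes, since 3′ counts carry no length.

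The members and gene lists were chosen with earlier results of these data known. The members were named in every comparison, and of each list the 3 genes with the largest change in each direction among those called, of which some are printed. Alternatives were the normalization, the filter, the cell filters, the doublet and tag settings, each sample or library left out, and, chosen after seeing the data, stage comparisons in cells with neither Gzmc nor Itgae and Eomes levels without the Balb/c sample.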

Additional observations from a re-analysis of the deposited data

How the results depend on the processing

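The shallow earlier library, low counts of the members in T cells and 1 sample per stage limit these results. In the samples of the earlier pool alone, the number called was 265 for Ncr1 cells by Gzmc or Itgae, 8 for Cd8b1 T cells, 38 for Cd8a-only T cells, 86 for Cd8b1 T cells against T cells without Cd8, 28 for Cd8a-only against Cd8b1 T cells, 48 for Ncr1 cells against Cd8a-only T cells and 717 for Ncr1 cells against Cd8b1 T cells. In the samples of the later pool alone it was 88 for Cd8b1 and 200 for Cd8a-only T cells by Gzmc or Itgae, and 77 for Ncr1 cells against Cd8a-only T cells. Fewer samples enter these fits. Without Cd3e cells that had Ncr1, it was 106 for Cd8b1 and 216 for Cd8a-only T cells by Gzmc or Itgae. With every cell with any UMI of another lineage left out, it was 131 for Cd8a-only T cells by Gzmc or Itgae, 231 for Cd8a-only against Cd8b1 T cells and 71 for Ncr1 cells against Cd8a-only T cells. With at least 50 cells per sum, the first 2 of these were 139 and 269. Without the filter on low counts, Ncr1 cells against Cd8a-only T cells gave 310. Leaving out 1 sample gave 82 to 201 for Cd8b1 T cells by Gzmc or Itgae and 118 to 192 for Ncr1 cells against Cd8a-only T cells.

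For Lactation against Gestation, the counts in all T cells, Cd8b1, Cd8a-only and Ncr1 cells were 0, 0, 0 and 0 with no replicate block for the year, and 3, 0, 1 and 0 by DESeq2. With DESeq2 size factors they were 27 in all T cells, 0 in Cd8a-only and 19 in Ncr1 cells. Without the filter they were 56, 19 and 6 in the 3 T cell sets. Without doublet calls by Scrublet they were 27, 8, 4 and 2. Without removal of other lineages they were 17, 4 and 71 in Cd8b1, Cd8a-only and Ncr1 cells. At a stricter tag quantile they were 2 in all T cells and 9 in Cd8b1 T cells, and in cells with neither gene 0 in Cd8b1 T cells and 0 in Ncr1 cells. Leaving out 1 sample together with the year block, with which 3 samples leave no residual degree of freedom, gave 0 to 6, 1 to 32, 0 to 57 and 0 to 56. The year pairs the samples of 1 library, and leaving this block out with all samples kept changed no call of a member.

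Called as lower in Cd8b1 T cells than in T cells without Cd8, Ifng (-0.69) and P2rx7 (-1.21) had the other sign in the earlier pool alone, at 0.32 and 0.042, and the cause was not tested. The other differences that changed sign were uncalled, and the cause was not tested. For Cd8b1 T cells by Gzmc or Itgae these were Prdm1 (0.0048 with DESeq2 size factors, 0.10 without any UMI of other lineages, 0.20 with 50 cells, 0.14 without Ncr1 and 0.014 in the later pool), Id2 (0.14 without other lineages, 0.29 with 50 cells and 0.12 in the later pool) and Tbx21 (0.11 with 50 cells and 0.68 in the earlier pool). For Cd8a-only T cells by Gzmc or Itgae they were Prdm1 (-0.20 without other lineages) and Id2 (0.030 in the later pool). For Cd8a-only against Cd8b1 T cells, Id2 was 0.032 by DESeq2 and 0.34 in the earlier pool, and Runx3 was -0.056 without other lineages. For Lactation against Gestation, Runx3 in all T cells was -0.043 and Tbx21 in Cd8b1 T cells -0.12 at the stricter tag quantile, and Prdm1 in Cd8a-only T cells was 0.024 with no replicate block. When 1 sample was left out, the values ran from -0.22 to 0.17 for Prdm1, -0.22 to 0.027 for Id2 and -0.32 to 0.085 for Tbx21 in Cd8b1 T cells by Gzmc or Itgae, from -0.19 to 0.030 for Id2 in Cd8a-only T cells by Gzmc or Itgae, and from -0.14 to 0.086 for Id2 in Cd8a-only against Cd8b1 T cells. For Lactation against Gestation, with the year block left out as well, they ran in all T cells from -0.025 to 0.69 for Tbx21, -0.030 to 0.78 for Zfp683, -0.15 to 1.10 for Prdm1, -0.066 to 0.22 for Runx3 and -0.29 to 0.73 for Id2. In Cd8b1 T cells they ran from -2.49 to 0.17 for Eomes, -0.46 to 0.76 for Tbx21 and -0.12 to 0.28 for Runx3. In Cd8a-only T cells they ran from -1.10 to 1.16 for Prdm1, -0.26 to 0.046 for Runx3 and -0.83 to 0.30 for Id2. In Ncr1 cells they ran from -0.89 to 0.55 for Eomes, -0.50 to 0.33 for Prdm1 and -0.55 to 0.17 for Id2.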
